A study of Mus musculus with 43 samples.

Results

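H3R2me2a, the asymmetric dimethylation of arginine 2 of histone H3, was compared with H3K4me3, the trimethylation of lysine 4 of the same tail, in germ cells of WT mice at postnatal day 7 (P7). The comparison rests on 4 of the 43 samples of the series, 2 CUT&Tag peak lists of each mark, chosen by their labels for mark, age and genotype. CUT&Tag tethers the transposase Tn5 to an antibody on intact chromatin and sequences the fragments that it cuts out, so a peak marks where the antibody's target gathered transposition. The H3R2me2a lists held 18821 and 20891 peaks and the H3K4me3 lists 19162 and 18465. Peak lists of 5 further marks of the same age and genotype (H3R8me2a, H4R3me2a, H4R3me1, H4R3me2s and H3K27ac, 11 lists) served as the background, 2 H3K4me3 lists at P14 as a later stage, and 5 WT RNA libraries at P7 gave the expression of the genes.

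The WT chromatin came from testes that were digested into single cells and passed through a fine strainer to remove Sertoli cells, and the labels call the cells spermatogonia. The label WT covers both assays, but by the study's methods the sorted control cells for RNA came from heterozygous Ddx4-GFP-CreERT2-Prmt1+/lox males, which carry a tamoxifen-inducible Cre driven in germ cells and 1 floxed copy of Prmt1, and the RNA was collected after 3 consecutive doses of tamoxifen, which is not described for the WT chromatin. The study describes its experiments as biological replicates in general and the sorted spermatogonia so by name, but neither the animals behind each list nor pooling or litters are stated. P-values measure the spread between these lists or libraries, part of which may be technical. The P14 lists are titled spermatogonia while their cell type label reads spermatocyte. The lists carry no read depth and name no control library, so the precision of a single peak is unknown.

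Lysine 4 of histone H3 is trimethylated at the start sites of active and poised genes by the SET1 and MLL enzymes, which work with the shared subunits Wdr5, Ash2l, Rbbp5 and Dpy30. Arginine 2 lies on the same tail, a short step before lysine 4. In somatic cells Prmt6 is the known main writer of H3R2me2a, and the mark hinders the docking of Wdr5 and of several H3K4me3 readers, while H3K4me3 in turn hinders Prmt6. The question asked of the lists was therefore how far both marks occupy the same places in the germ cells. A peak list counts places in a population of cells, so 2 marks on 1 peak need not sit on the same tail, nucleosome or cell.

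The sequences under the summits, the positions of highest signal, show the kinds of place that each mark held. Each is 300 bases of the forward strand of GRCm38 (mm10) around a summit of the first list, with every CpG in capitals. The first 3 carried both marks. They lie upstream of the meiotic gene Prdm9, in an intron of the arginine methyltransferase gene Prmt2 and in an exon of Sox17, and hold 11, 17 and 31 CpG.
Prdm9, H3R2me2a summit, chr17:15564466-15564765: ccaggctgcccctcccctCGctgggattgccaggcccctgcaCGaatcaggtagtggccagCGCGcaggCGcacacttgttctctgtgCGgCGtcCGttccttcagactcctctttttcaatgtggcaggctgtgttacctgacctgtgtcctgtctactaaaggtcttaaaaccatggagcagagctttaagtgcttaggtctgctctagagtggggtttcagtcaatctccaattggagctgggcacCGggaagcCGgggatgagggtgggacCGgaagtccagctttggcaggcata
Prmt2, H3R2me2a summit, chr10:76237558-76237857: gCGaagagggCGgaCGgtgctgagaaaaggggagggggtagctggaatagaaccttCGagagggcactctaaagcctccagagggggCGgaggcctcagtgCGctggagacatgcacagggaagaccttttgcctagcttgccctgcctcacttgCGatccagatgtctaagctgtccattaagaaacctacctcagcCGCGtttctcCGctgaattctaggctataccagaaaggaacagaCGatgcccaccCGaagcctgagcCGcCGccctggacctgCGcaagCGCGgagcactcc
Sox17, H3R2me2a summit, chr1:4492206-4492505: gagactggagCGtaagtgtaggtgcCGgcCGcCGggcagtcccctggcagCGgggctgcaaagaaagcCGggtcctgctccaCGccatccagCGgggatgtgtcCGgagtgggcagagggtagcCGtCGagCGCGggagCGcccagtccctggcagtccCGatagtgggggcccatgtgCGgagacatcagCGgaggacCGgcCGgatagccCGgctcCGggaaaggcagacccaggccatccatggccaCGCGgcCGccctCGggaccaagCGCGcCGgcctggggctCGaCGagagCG

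The next 3 come from promoters with H3R2me2a in both lists and H3K4me3 in neither. Those near Pabpc1l and Kirrel2 lie in introns, hold 0 CpG and repeat related stretches, and that in an exon of Spo11 holds 12 CpG.
Pabpc1l, H3R2me2a summit, chr2:164038544-164038843: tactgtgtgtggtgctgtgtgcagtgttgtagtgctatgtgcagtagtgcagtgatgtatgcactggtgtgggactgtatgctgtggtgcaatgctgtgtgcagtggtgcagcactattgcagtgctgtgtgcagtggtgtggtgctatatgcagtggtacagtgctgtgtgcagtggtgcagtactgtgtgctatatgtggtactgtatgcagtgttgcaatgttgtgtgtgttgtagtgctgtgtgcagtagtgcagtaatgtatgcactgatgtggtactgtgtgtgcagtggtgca
Kirrel2, H3R2me2a summit, chr7:30450884-30451183: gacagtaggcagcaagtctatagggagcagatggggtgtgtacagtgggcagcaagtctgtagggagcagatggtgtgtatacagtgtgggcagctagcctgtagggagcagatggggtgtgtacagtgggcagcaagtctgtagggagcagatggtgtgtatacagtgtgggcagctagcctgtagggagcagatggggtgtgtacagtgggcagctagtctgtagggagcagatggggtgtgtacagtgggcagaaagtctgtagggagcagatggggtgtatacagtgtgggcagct
Spo11, H3R2me2a summit, chr2:172987064-172987363: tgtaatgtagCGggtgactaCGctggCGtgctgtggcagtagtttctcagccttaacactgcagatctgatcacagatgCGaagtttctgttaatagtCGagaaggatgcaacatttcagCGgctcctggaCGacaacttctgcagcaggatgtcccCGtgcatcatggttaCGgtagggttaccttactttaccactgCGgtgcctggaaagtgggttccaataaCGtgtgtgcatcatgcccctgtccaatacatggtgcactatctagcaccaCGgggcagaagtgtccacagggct

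The last 2 lie under strong H3K4me3 summits at promoters without H3R2me2a in either list, in an exon of Armc8 and an intron of Dcaf1, with 31 and 32 CpG.
Armc8, H3K4me3 summit, chr9:99568574-99568873: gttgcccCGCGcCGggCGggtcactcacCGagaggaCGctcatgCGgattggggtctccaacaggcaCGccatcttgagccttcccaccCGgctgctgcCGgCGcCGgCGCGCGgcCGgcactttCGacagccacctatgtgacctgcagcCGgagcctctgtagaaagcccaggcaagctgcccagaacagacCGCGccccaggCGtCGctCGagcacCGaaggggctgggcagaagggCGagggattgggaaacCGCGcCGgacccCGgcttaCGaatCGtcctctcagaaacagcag
Dcaf1, H3K4me3 summit, chr9:106821962-106822261: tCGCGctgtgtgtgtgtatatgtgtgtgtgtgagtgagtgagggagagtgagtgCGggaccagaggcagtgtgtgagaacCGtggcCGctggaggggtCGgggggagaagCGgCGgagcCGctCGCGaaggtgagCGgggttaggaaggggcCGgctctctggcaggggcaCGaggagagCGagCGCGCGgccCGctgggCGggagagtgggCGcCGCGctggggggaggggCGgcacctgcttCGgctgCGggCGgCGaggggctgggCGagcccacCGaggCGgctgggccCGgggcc

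The lists differed in kind before any overlap was counted. H3R2me2a peaks were called at p 0.005, H3K4me3 peaks at q 0.05, as the peak names record. The median H3R2me2a peak was 266 bp wide in replicate 1 and 261 bp in replicate 2, with a fold enrichment over the caller's local background of 2.96 and 3.04. The median H3K4me3 peak was 857 and 796 bp wide, with a fold of 5.14 and 5.26. Of the H3R2me2a peaks, 19.4% and 14.3% met the q of 0.05 that every H3K4me3 peak met. The replicate lists of H3R2me2a shared 17.0% and 15.3% of their peaks, those of H3K4me3 84.4% and 89.8%. The other arginine marks shared between 8.98% and 23.7%, H3K27ac up to 38.0%. Regions found in both lists of a mark numbered 3126 for H3R2me2a, covering 1.70 Mb, and 15773 for H3K4me3, covering 17.1 Mb or 0.629% of the genome.

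A set of places was present in all 15 P7 WT lists, whatever the antibody. These were 347 peaks of each H3R2me2a list, 1.86% and 1.67% of it, with a median fold of 5.03 and 5.14 against 2.94 and 3.03 for the rest. The 100 strongest H3R2me2a peaks of both replicates all belonged to this set, and by its definition all overlapped H3K4me3. Repeat-masked bases made up 48.3% and 49.6% of the 500 bases around their summits, and 45.2% and 47.0% of them matched themselves at a shift of 6 to 150 bases in at least 60% of positions, called tandem here. Results are therefore also given without these sites, an alternative chosen after seeing the data. Since these sites hold H3K4me3 by definition, leaving them out lowers the shares on H3K4me3.

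Of the H3R2me2a peaks, 18.2% in replicate 1 and 14.9% in replicate 2 overlapped an H3K4me3 region by at least 1 bp (16.6% ± 2.27, SD, n = 2 lists). This is 26.3 times the share of the genome that these regions cover. Without the sites in all lists the shares were 16.6% and 13.5%. Both H3R2me2a lists lay below both H3R8me2a lists (20.4% and 21.4%), a difference of -4.37 percentage points with an exact two-sided permutation p = 0.333, the smallest that 2 lists against 2 can give. The mean share was 15.3% for H4R3me2a, 13.9% for H4R3me1, 21.0% for H4R3me2s and 37.5% for H3K27ac, and of these only the H3K27ac lists did not overlap the H3R2me2a lists in value. All of these comparisons use the same H3K4me3 regions. At a q of at most 0.01 the order against H3R8me2a turned round, 44.9% for H3R2me2a against 39.0%. Without the sites in all lists the values at this q interleaved, 34.96% and 25.8% for H3R2me2a and 26.7% and 29.1% for H3R8me2a.

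Seen from H3K4me3, 7.24% and 7.23% of its peaks overlapped a region of H3R2me2a found in both lists. H3R8me2a regions took 7.83% and 7.99% (exact permutation p = 0.333), and H3K27ac regions 29.2% and 30.1%. Both sides of this test are the same 2 H3K4me3 lists, taken as unpaired. With the regions held fixed, it leaves out the spread between H3R2me2a lists. With a region in either list the H3R2me2a shares were 27.9% and 27.8%, then above H3R8me2a at 26.2% and 26.5%. The mean share was 4.36% where at least 50% of the H3K4me3 peak had to be covered and 2.13% with H3R2me2a peaks of a q of at most 0.01.

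**Figure D1:**
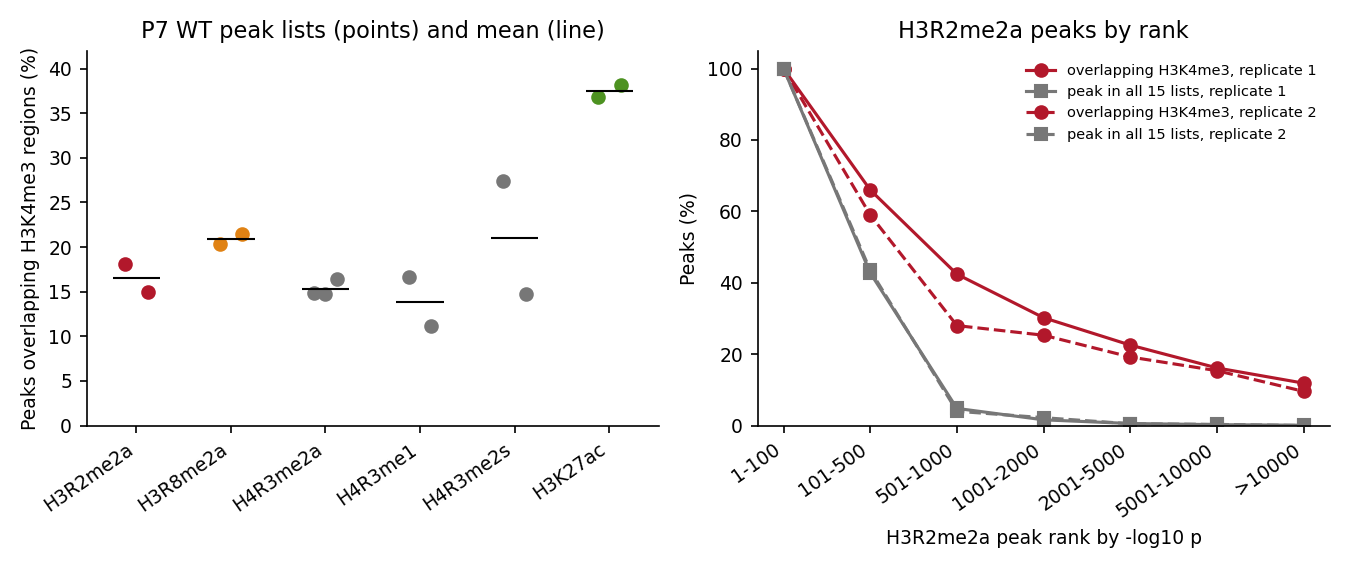
Left, the percentage of each P7 WT list's peaks that overlap H3K4me3 regions, 1 point per list and a line at the mean of 2 lists (3 for H4R3me2a). Right, the percentage of H3R2me2a peaks in classes of rank by -log10 p that overlap H3K4me3 (circles) or are present in all 15 lists (squares), solid for replicate 1 and dashed for replicate 2. Both curves start at 100% for the 100 strongest peaks, where presence in all lists includes H3K4me3 by definition, and fall with rank.

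The overlap went with the strength of the H3R2me2a peak. Outside the sites in all lists, 41.1% and 27.9% of the peaks ranked 101 to 500 overlapped H3K4me3, and 11.8% and 9.57% of those ranked beyond 10000. Among H3R2me2a peaks on H3K4me3 regions, 37.0% and 30.8% met the q of 0.05 and 35.3% and 38.9% recurred in the other replicate. Among those without an H3K4me3 peak in either list, 14.6% and 10.4% met it and 11.4% and 9.89% recurred. Most of each list thus consisted of weak peaks away from H3K4me3 that the other replicate did not hold: 10873 and 12739 peaks lay more than 3000 bp from a start site and off H3K4me3, 3851 and 4304 lay near a start site and off H3K4me3, and 2969 and 2671 lay near a start site on H3K4me3.

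The 3126 H3R2me2a regions of both lists were more evenly divided, 1191 (38.1%) on an H3K4me3 region and 1640 (52.5%) off H3K4me3 in both lists. Regions on H3K4me3 coincided with H3K27ac regions in 67.9% and with regions of H4R3me2s, the symmetric mark written by Prmt5, in 51.1%. Off H3K4me3 these shares were 15.4% and 7.93%. The shares for H3R8me2a were 48.3% on and 22.2% off H3K4me3, and 32.4% and 4.76% of the regions held all 4 other arginine marks. Sites in all lists hold a peak of every mark, H3K4me3 included, by definition. Leaving them out therefore cannot remove regions off H3K4me3, which stayed at 1640. Without the sites in all lists 839 of 2769 regions (30.3%) lay on H3K4me3. The shares on H3K4me3 fell to 54.5% for H3K27ac, 31.6% for H4R3me2s, 26.7% for H3R8me2a and 5.13% for all 4 marks. The last 2 were then close to those off H3K4me3, but the 2 sides were not filtered alike. Places off H3K4me3 with a peak in 13 of the 15 lists, such as that of Pabpc1l, were kept. Of the regions off H3K4me3, 332 met no peak of any other mark in any list.

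H3R2me2a summits were dense inside H3K4me3 regions and not depleted beside them. Replicate 1 had 190 summits per Mb inside, 18.8 within 500 bp of an edge and 4.12 beyond 20 kb, and replicate 2 had 173, 20.9 and 5.02. Where the peaks overlapped, the median distance from an H3R2me2a summit to the nearest H3K4me3 summit was 155 to 156 bp over the 4 pairs of lists, and 175 to 177 bp without the sites in all lists. H3K4me3 summits of the 2 replicates lay 63 and 66 bp apart, and H3R2me2a summits of the 2 replicates 81 bp apart on H3K4me3 (109 bp without the sites in all lists). The distance to H3K4me3 was 157 to 160 bp for H3R8me2a, 160 to 168 bp for H3K27ac and 137 to 145 bp for H4R3me2a. In H3K4me3 peaks of at least 600 bp, the central part, 33.3% of the length, held 41.9% to 43.8% of H3R2me2a summits, 41.4% to 43.0% of H3R8me2a summits and 43.8% to 44.4% of H3K27ac summits. With all overlapping peaks counted, H3R2me2a summits thus lay no farther from H3K4me3 summits than those of H3R8me2a or H3K27ac. For these 2 marks the distance without the sites in all lists was not computed, so the 175 to 177 bp has no counterpart.

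At start sites, the H3K4me3 summit lay at a median of 134 and 135 bp downstream, and 23.9% and 24.1% of its summits within 3000 bp lay upstream. H3R2me2a summits on H3K4me3 lay at 92 and 93 bp downstream, and 33.2% and 34.7% upstream. H3R2me2a summits off H3K4me3 gathered there more weakly, with 3.33% and 2.96% of them in the first 100 bp downstream and 60.1% and 59.8% of them over 1000 bp from the start site, against 6.63% and 6.41% of those on H3K4me3.

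**Figure D2:**
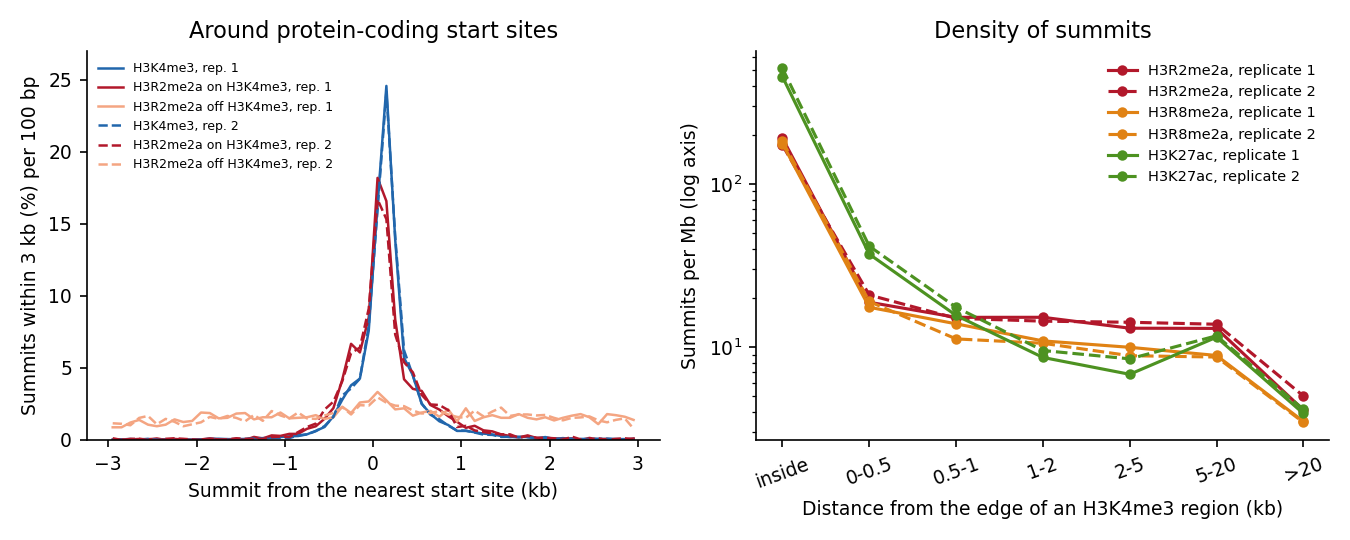
Left, summits per 100 bp (percent of the summits within 3 kb of a protein-coding start site, negative upstream) for H3K4me3 and for H3R2me2a on and off H3K4me3, solid for replicate 1 and dashed for replicate 2. Right, summits per Mb (log axis) inside H3K4me3 regions and at growing distance from their edges. H3R2me2a on H3K4me3 peaks at the start site, H3R2me2a off H3K4me3 rises there only to 3.33% and 2.96% per 100 bp, and the density falls from 190 and 173 per Mb inside to 18.8 and 20.9 at the edge.

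The sequence under H3R2me2a differed with H3K4me3. In the 500 bases around promoter summits on H3K4me3, the sites in all lists left out, the mean GC content was 62.1% and 61.9%, the median ratio of observed to expected CpG 0.73 and 0.72, and 69.9% and 68.5% of windows were CpG-rich (a ratio of at least 0.6 and a GC content of at least 50%). At promoter summits off H3K4me3 these were 51.3% and 50.8%, 0.21 and 0.20, and 2.57% and 2.51%. H3R8me2a split in the same manner, with ratios of 0.74 on and 0.19 off H3K4me3. H3K4me3 peaks with and without H3R2me2a had the same CpG ratio, 0.71 and 0.72 with and 0.71 and 0.72 without. They differed in repeats: 13.0% and 11.3% of the H3K4me3 windows with H3R2me2a were tandem, against 0.49% and 0.48% of those without. Among H3R2me2a windows on H3K4me3, 0.35% and 0.39% of those at promoters were tandem, against 19.9% and 20.6% of distal ones. For H3R8me2a these shares were 0.65% and 0.41% against 21.7% and 24.7%. Pabpc1l and Kirrel2 above, with 0 CpG, are examples off H3K4me3.

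**Figure D3:**
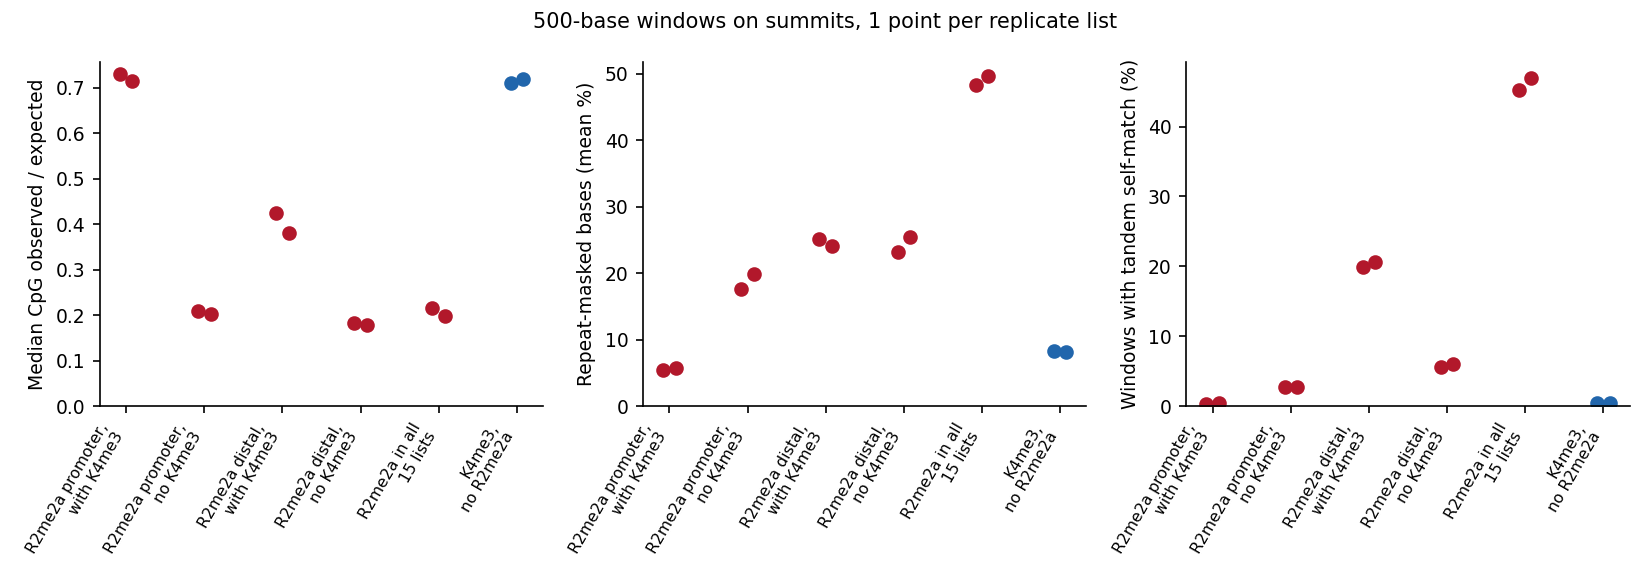
Median observed over expected CpG, mean repeat-masked bases and share of tandem windows in 500 bases around summits, 1 point per replicate list. Peaks in all 15 lists stand in their own column and are left out of the H3R2me2a classes with H3K4me3. Promoter H3R2me2a on H3K4me3 sits at 0.73 and 0.72, next to H3K4me3 without H3R2me2a at 0.71 and 0.72, and H3R2me2a off H3K4me3 at 0.21 or below.

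A promoter was counted for a mark when both lists held a summit within 3000 bp of any start site of the gene. Of 21938 protein-coding genes, 2397 (10.9%) had H3R2me2a and 13311 (60.7%) had H3K4me3. Both marks were found at 2162 genes, H3R2me2a alone at 235, H3K4me3 alone at 11149 and neither at 8392. H3R2me2a promoters carried H3K4me3 in 90.2% of cases. H3R2me2a was thus found at 16.2% of H3K4me3 promoters and at 2.72% of the others. These shares depend on what counts as a mark: with the first H3R2me2a list taken by itself they were 34.1% and 9.23%, with the second by itself 33.5% and 9.62%, with each mark in either list 50.7% and 14.1%, and at a q of at most 0.01 0.737% and 0.0347%. The 16.2% set beside gene lists holds only for the rule of both lists. The share of promoters with H3K4me3 was 93.5% for H3R8me2a, 89.8% for H4R3me2a, 90.3% for H4R3me1, 94.9% for H4R3me2s and 97.8% for H3K27ac.

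Some of the shared promoters held the marks apart. The 2 H3R2me2a lists overlapped each other at 1202 of the 2397 promoters (50.1%), of which 1105 (91.9%) had H3K4me3. Between 606 and 672 of the 2162 promoters with both marks, depending on the pair of lists, had the nearest summits of the marks over 1000 bp apart. Genes with both marks also had more annotated start sites, 6.51 on average, than genes with H3K4me3 alone (5.20), H3R2me2a alone (4.28) or neither mark (2.44), and each start site adds a window; its part in the counts was not tested. Of the 235 genes with H3R2me2a alone, 164 had H3K4me3 in neither list.

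The X chromosome stood apart. H3R2me2a was found at 8 of 463 X-linked H3K4me3 promoters (1.73%) against 16.8% on the autosomes. H3R8me2a gave 0.864% against 15.4% and H3K27ac 26.6% against 50.7%. H3R2me2a peaks per Mb were 0.538 and 0.731 on the X and 7.54 and 8.36 on the autosomes, those of H3K4me3 4.15 and 3.83 against 7.44 and 7.17. Male cells carry a single X, and the part of copy number in these shares was not tested.

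The strongest H3R2me2a promoters without H3K4me3 were named by the mean rank of their peaks, and 3 of the 10 were clone names that are counted only. Pabpc1l, which encodes a germ-cell poly(A)-binding protein, had peaks of 4.35-fold and 4.17-fold in an intron, and these places held a peak in 13 of the 15 lists. Kirrel2, which encodes an adhesion protein of the immunoglobulin family, had 4.01-fold and 3.29-fold, in 8 and 7 of the 15 lists. Kcne2, a potassium channel subunit, had 3.15-fold and 4.57-fold, in 12 lists. The windows of Kirrel2 matched themselves at 82.0% or more of positions at their best shift, those of Kcne2 at 63.9% and 65.0% and those of Pabpc1l at 56.1% and 53.4%. Samd11, Flg (the skin protein filaggrin), F2rl3 (a thrombin receptor) and Myom3 (a muscle M-band protein) had peaks between 3.08-fold and 4.29-fold that lay in 1 to 5 lists. Pabpc1l had 1.82 and 5.62 TPM in the spermatogonia libraries, Kirrel2 4.42 and 0, Samd11 0.16 and 6.31, and F2rl3 0 and 8.93. Flg, Kcne2 and Myom3 had 0 in both. These are low levels.

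All 10 of the strongest promoters with both marks lay at sites present in all 15 lists, among them Aida, Zc3h7a and Asmt, with H3R2me2a folds between 11.5 and 13.7. Outside those sites the strongest were Slc26a6, Rab3b, Psen2, Fcgr3, Mfap2, Usp5, Gcsh, Intu and Mrps9 beside 1 further gene, a group chosen after seeing the values. These H3R2me2a peaks were still held by 13 of the 15 lists at Slc26a6, Rab3b, Psen2 and Mfap2 and by 14 at Usp5. Gcsh had 13 and 12 lists, Fcgr3 14 and 12, Intu 10 and 9, and Mrps9 1 and 10. Usp5, a deubiquitinase, had 3.97-fold and 4.83-fold, and its second-list summits lay 2 bp apart. Gcsh, a subunit of the glycine cleavage system, had 4.71-fold and 4.22-fold, 6 and 9 bp from H3K4me3. At 6 of the 10 the summits of the strongest peak of each mark lay over 1000 bp apart in both lists, and at Fcgr3 and Mrps9 in 1 list. At Slc26a6, an anion exchanger, the H3R2me2a summits lay 58063 and 58060 bp from the H3K4me3 summits, at another annotated start site of the gene. The 6 strongest H3K4me3 promoters without H3R2me2a in either list were Dcaf1, Armc8, Cdkn2aip, Rab11b, Ube2g1 and Mtpn. Their H3K4me3 folds were between 5.97 and 9.62 and all 6 genes had over 10 TPM in every library.

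The genes that write, erase and read H3K4 methylation were set against the 16.2% of all H3K4me3 promoters that held H3R2me2a. Of 17 writers and their subunits, all had H3K4me3 and 6 also had H3R2me2a: Kmt2b and Kmt2d of the MLL family, the shared subunits Ash2l and Dpy30, Paxip1 and Prdm9 (35.3%). Wdr5, the subunit whose docking H3R2me2a hinders, had H3K4me3 alone, as did Kmt2a, Kmt2c, Setd1a and Setd1b. The H3R2me2a peaks of the 2 lists overlapped only at Prdm9 and Kmt2b of these 6. Those of Ash2l had ranks of 12581 and 9479 and lay 7894 and 14746 bp from H3K4me3. Prdm9, the histone methyltransferase that marks meiotic recombination sites, had 4.21-fold and 3.57-fold, 460 and 284 bp from an H3K4me3 summit of 6.17-fold and 7.11-fold. Of 6 H3K4 demethylase genes, 1 had both marks, Kdm1b, at a place with a peak in 14 of the 15 lists. Of 14 reader genes 4 had both, Taf3, Ing1, Ing2 and Bptf, and the H3R2me2a peaks of the 2 lists overlapped only at Bptf. Between the strongest peak of each mark assigned to a gene, summits lay 129992 and 94368 bp apart at Taf3, 82184 and 81593 bp at Bptf and 37437 and 36094 bp at Kmt2d, and 38155 bp apart in the second list at Paxip1.

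Of 10 arginine methyltransferase genes, 9 had H3K4me3 and 2 had both marks, Prmt2 and Carm1, 22.2% of those with H3K4me3 beside 16.2% of all H3K4me3 promoters. Prmt2 had H3R2me2a of 3.62-fold and 4.36-fold, 6 and 370 bp from H3K4me3, and 0 and 21.2 TPM in the spermatogonia libraries. The place at Carm1 was present in all 15 lists. Prmt6, the known writer of H3R2me2a, had H3K4me3 in both lists and H3R2me2a in 1, with 11.5 and 9.86 TPM.

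The germ-cell lists were set against the 10.9% of all genes with H3R2me2a and the 60.7% with H3K4me3 in both lists. Of 18 genes of spermatogonial self-renewal, 13 had H3K4me3 and 1 both marks, Etv5, a transcription factor downstream of GDNF, with 4.17-fold and 3.00-fold and 4.63 and 13.3 TPM. Of 15 genes of progenitor and differentiating spermatogonia, Dmrt1 and Ccnd2 had both marks and Neurog3 had H3R2me2a in both lists with H3K4me3 in 1 list only (3 of 15 with H3R2me2a). At none of these 3 did the H3R2me2a peaks of the 2 lists overlap. Summits of the 2 marks lay 893 and 2475 bp apart at Dmrt1 and 1349 and 199 bp at Ccnd2. Of 33 meiotic genes 22 had H3K4me3, and only Prdm9 had both marks. Spo11, the enzyme that cuts DNA to start recombination, had weak H3R2me2a peaks of 2.36-fold and 3.11-fold (ranks 17859 and 7957), no H3K4me3, and 18.9 and 0.09 TPM. Of 19 piRNA pathway genes 12 had H3K4me3 and 1 both marks, Tdrd7. None of 24 spermatid genes had H3R2me2a in both lists, and 6 had H3K4me3. None of 12 germ cell markers had H3R2me2a in both lists, with H3K4me3 at 10.

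A list of developmental regulators, transcription factors beside the ligands Wnt1, Shh, Bmp4 and Bmp7, had H3R2me2a at 8 of 50 genes (16% beside 10.9% of all genes), among them Sox2, Sox17, Gata3, Nkx6-1 and Dlx2 with H3K4me3, Pax6 with H3K4me3 in 1 list only, and Lhx5 without. H3K27ac was found at none of the 50 and H3R8me2a at 3, beside 6785 and 2122 of all 21938 genes. Their median was 0 TPM in both spermatogonia libraries and between 0.325 and 0.44 TPM in whole testis. At Sox17 the summits of the 2 marks lay 0 and 20 bp apart, with H3R2me2a of 2.86-fold and 3.02-fold. Cytosolic ribosomal protein genes, among the most expressed, had H3K4me3 at 77 of 79 and both marks at 4 (5.19% of those with H3K4me3, beside 16.2% of all H3K4me3 promoters). Zinc finger genes had both at 33 of 330 with H3K4me3, replication-dependent histone genes at 2 of 60 (3.33%). Of 1092 olfactory receptor genes, 2 had H3K4me3 and 2 had H3R2me2a (0.183% each, beside 60.7% and 10.9% of all genes), and 1 gene had both.

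The labelled cell type was set against markers of other testis cells, beside 60.7% of all genes with H3K4me3 and 10.9% with H3R2me2a. The germ cell list had H3K4me3 at 10 of 12 genes and medians of 106 and 89.1 TPM in the spermatogonia libraries. All 9 Sertoli markers also had H3K4me3, with medians of 9.62 and 15.2 TPM there and 239 to 246 TPM in whole testis. H3K4me3 was found at 0 of 6 Leydig, 0 of 4 macrophage, 1 of 4 myoid and 2 of 4 endothelial markers, and Kdr, the endothelial VEGF receptor, had both marks. No Sertoli, Leydig, myoid or macrophage marker had H3R2me2a in both lists. The bulk libraries bear the same cell type label, but had Leydig medians of 70.4 to 86.6 TPM, where the spermatogonia libraries had 0, and are called whole testis here. The part of other cells in the overlaps was not tested.

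**Figure D4:**
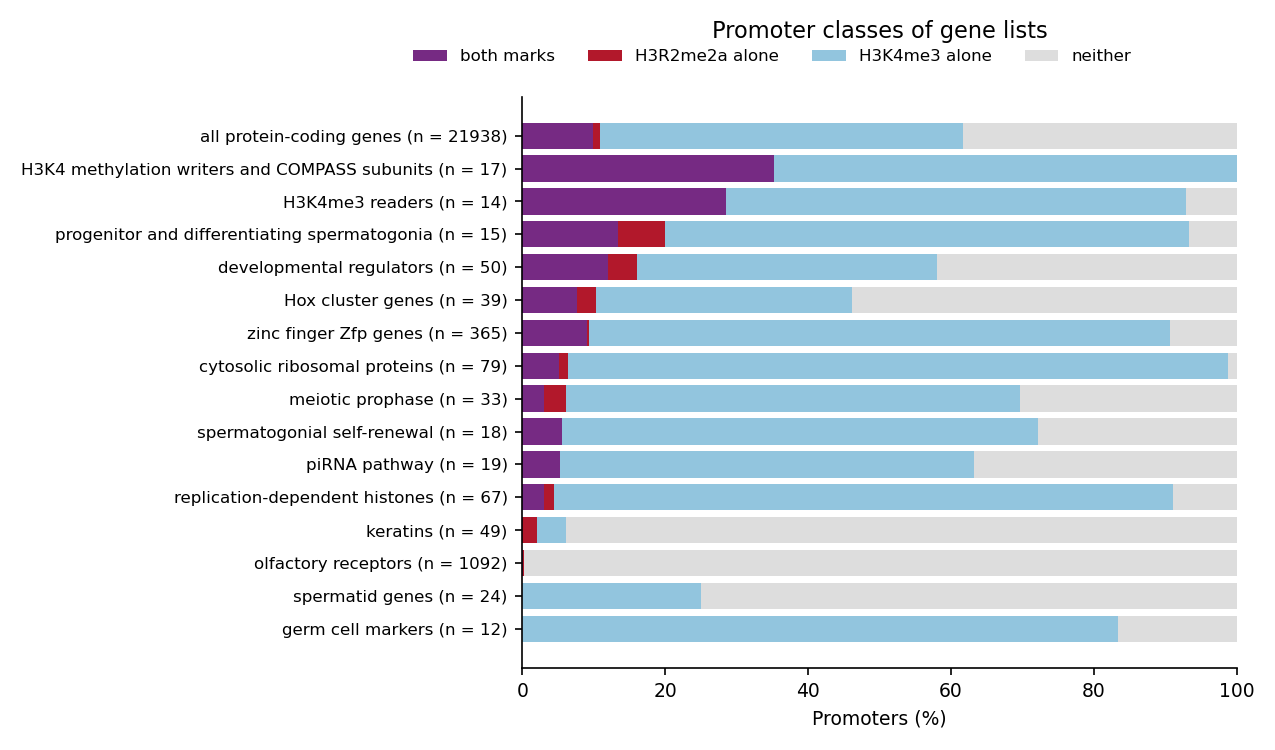
Share of promoters (percent of each list's genes) with both marks, H3R2me2a alone, H3K4me3 alone or neither, for lists of at least 12 genes and for all 21938 protein-coding genes at the top. The H3K4 methylation writers have both marks at 6 of 17 genes, germ cell markers and spermatid genes at 0.

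Genes with both marks and with H3K4me3 alone had close median TPM values within each library. In the 2 spermatogonia libraries the class medians averaged 14.5 ± 0.771 TPM for both marks and 14.7 ± 0.743 TPM for H3K4me3 alone. In 3 whole testis libraries they were 23.5 ± 1.21 and 23.5 ± 0.759 TPM (SD over libraries). On the log2(TPM + 1) scale the differences were -0.016 (lowest -0.018, highest -0.013, exact sign-flip permutation p = 0.5, the smallest that 2 libraries allow) and -0.00013 (lowest -0.031, highest 0.018, exact p = 1). The sign changed with the promoter rule: with a window of 1000 bp the differences were 0.24 and 0.076. For H3R8me2a the same contrast gave 0.90 in spermatogonia and 0.56 in whole testis, higher in 2 of 2 and 3 of 3 libraries (exact p = 0.5 and 0.25, the smallest possible). The H3R2me2a difference minus the H3R8me2a difference was -0.91 and -0.56, negative in every library (exact p = 0.5 and 0.25). Both contrasts share the H3K4me3 lists and the libraries.

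The share of H3K4me3 promoters with H3R2me2a varied little across expression. In spermatogonia replicate 1 it was 15.9% below 0.1 TPM, 16.7% between 1 and 10 TPM and 14.9% above 100 TPM, close to the 16.2% of all H3K4me3 promoters. Over the same classes H3R8me2a rose from 7.66% to 18.8% and H3K27ac from 18.1% to 73.5%.

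**Figure D5:**
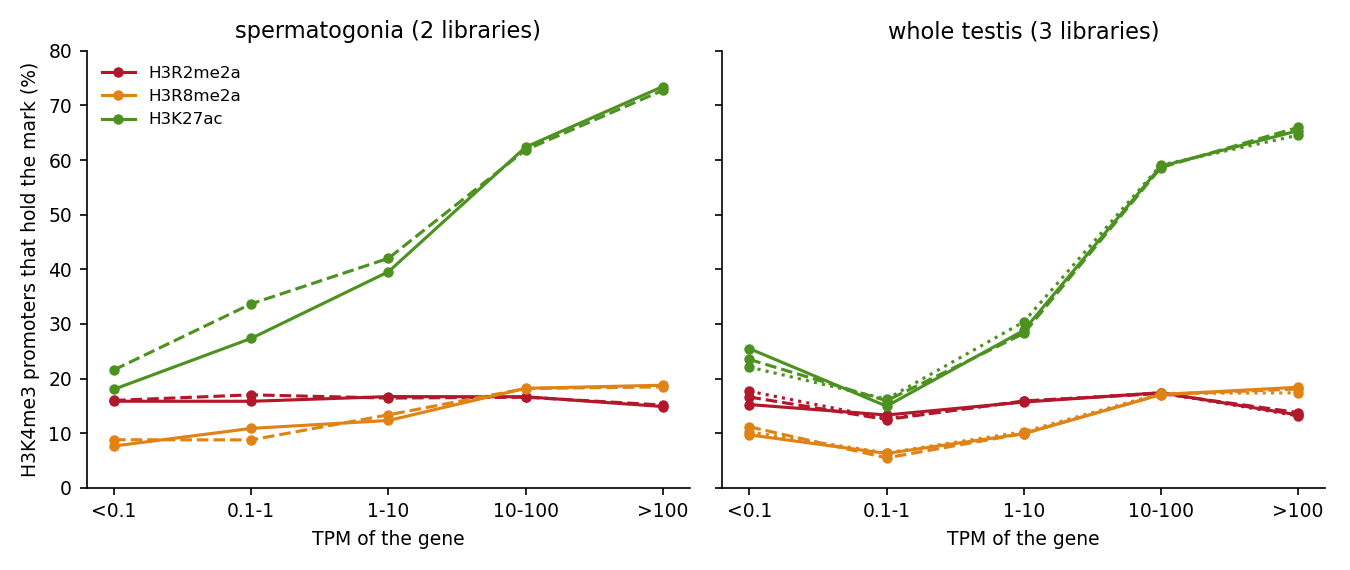
Percentage of H3K4me3 promoters that also hold H3R2me2a, H3R8me2a or H3K27ac in both lists, by TPM of the gene, 1 line per RNA library (solid, dashed and dotted for replicates 1, 2 and 3). H3R2me2a stays between 12.5% and 17.7% in every class of every library, while H3K27ac goes from at most 33.7% below 1 TPM to at least 64.5% above 100 TPM.

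The width of the H3K4me3 peak changed this comparison. H3R2me2a was found at 11.3% of the promoters in the narrowest quintile of H3K4me3 width and at 24.1% in the widest. Counted per H3K4me3 peak the share rose less and not steadily, with 7.66% and 6.64% in the narrowest quintile, 5.06% and 5.39% in the middle and 9.68% and 9.20% in the widest, and per kb of peak the share fell from 28.9% and 25.8% to 5.85% in both lists. Within quintiles, genes with both marks had the lower median in all 5 quintiles and every library, with mean differences of -0.36 in spermatogonia (exact sign-flip permutation p = 0.5) and -0.18 in whole testis (exact p = 0.25). In the widest quintile the medians were 23.5 and 21.8 TPM with both marks and 25.7 and 23.6 TPM with H3K4me3 alone. In the narrowest quintile they were 0.64 and 0.14 TPM against 2.38 and 0.62 TPM. With the 1000 bp window the mean was -0.32 in spermatogonia, but only 3 of 5 quintiles were lower in every library. H3R8me2a promoters had the higher median in all 5 quintiles of every library.

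H3K4me3 peaks with H3R2me2a had a median width of 838 and 814 bp and a fold of 5.58 and 5.78, against 771 and 720 bp and 4.91 and 5.04 for those without H3R2me2a in either list. The mean difference in width was 80.2 bp, and 214.5 to 274 bp when a single H3R2me2a list defined the regions. Without the sites in all lists the width was 1017 and 965 bp. At a q of at most 0.01 for H3R2me2a the sign of the width difference turned, to -377 bp.

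Genes with H3R2me2a alone were mostly silent, but less often than genes with neither mark. At least 1 TPM was reached by 17.0% ± 1.81 of them in spermatogonia against 9.31% ± 0.686 (SD, n = 2 libraries, exact p = 0.5), and by 34.3% ± 1.49 in whole testis against 17.3% ± 0.0976 (SD, n = 3, exact p = 0.25). Every library went the same way. For H3R8me2a alone the shares were 18.7% and 37.4%, against 9.37% and 17.4% for genes with neither H3R8me2a nor H3K4me3. The median was 0 TPM in both classes in spermatogonia, and the difference in whole testis was 0.52 on the log2 scale with a pseudocount of 1 (exact p = 0.25). With a pseudocount of 0.1 it was 2.40, so its size is set by the pseudocount. Among genes with a mean of at least 1 TPM that difference turned to -0.14.

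At P14, H3K4me3 was found in both lists at 30 of the 164 promoters that had H3R2me2a in both lists and no H3K4me3 at P7 (18.3%). It was found at 131 of 951 with H3R2me2a in 1 list (13.8%) and at 282 of 6812 with no peak of either mark (4.14%). Promoters with H3R8me2a in both lists and no H3K4me3 at P7 gained it at 24 of 110 (21.8%). These shares rest on 2 P14 lists and were not tested.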

How the data were processed

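The authors called CUT&Tag peaks with MACS2 2.1.0 for each sample on mm10. The deposited lists hold 1 row per peak with its fold enrichment (a ratio), -log10 p and -log10 q, with thresholds of p 0.005 for H3R2me2a and q 0.05 for H3K4me3. The CUT&Tag aligner is not given in the sources used here. For RNA the authors trimmed with fastp 0.23.2 and used RSEM, and the TPM and expected counts they deposited were read as given, with library totals of 15196883 to 18547103 expected counts.

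Peaks on other contigs were left out (129 and 135 of the H3R2me2a lists, 99 and 101 of the H3K4me3 lists). A mark's regions are merged peaks that both lists hold, with at least 1 bp of overlap (2 of 3 lists for H4R3me2a). Start sites, genes, exons and introns came from GENCODE vM21, and sequence from GRCm38.p6 in RefSeq. The list or library was the replicate in exact two-sided permutation tests, and TPM was compared as log2(TPM + 1). For 54 of 21938 protein-coding genes the tables held no value. Interval functions were tested on simulated data. Python 3.11.15, numpy 2.4.6, pandas 2.3.3 and scipy 1.17.1 were used.

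Named genes were the 10 promoters with H3R2me2a and no H3K4me3, the 10 with both marks and the 6 with H3K4me3 and no H3R2me2a of best mean rank, beside members of gene lists. Members, lists and markers were chosen with earlier results of these data known. Alternatives varied the q, the window, the lists required, list length, overlap, pseudocount, TPM filter and replicates.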

Additional observations from a re-analysis of the deposited data

How the results depend on the processing

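Of the alternatives tried, 72 kept the direction of a tested result or the size of an untested one, 24 moved a value and 11 reversed it. The causes were not tested unless stated. The count includes alternatives chosen after seeing the data and some that could not change a result, such as the replicate block, which keeps the mean. It also includes spermatogonia medians of 0 against 0, and signs around a whole testis difference of -0.00013, which say little. At a q of at most 0.01, which keeps 1600 and 1349 H3R2me2a peaks, the share on H3K4me3 regions was 44.9% (39.0% for H3R8me2a), the summit distance 55.6 bp (73 to 98.5 bp without the sites in all lists, added after seeing the data), the promoter counts 98 with both marks and 3 with H3R2me2a alone, the width difference -377 bp and the fold difference 0.59. With a mark in either list, the share of H3K4me3 peaks on H3R2me2a was 27.8% (26.3% for H3R8me2a), the promoter counts were 7105, 1115 and, for H3K4me3 alone, 6906, the TPM differences 0.10 and 0.087 on the log2 scale, the width difference 299 bp and the fold difference 0.77. A window of 1000 bp gave 1382 and 101 promoters and TPM differences of 0.24 and 0.076. Counting all annotated genes gave 583 with H3R2me2a alone and 37813 with neither mark. Among genes of at least 1 TPM, H3R2me2a alone differed from neither by -0.29 in spermatogonia and -0.14 in whole testis. All summits within 3000 bp gave a distance of 286 bp. Chosen after seeing the data, overlapping H3R2me2a peaks in the 2 lists gave 1105 and 97 promoters and a TPM difference of 0.044 in spermatogonia, and leaving out the sites in all lists gave a distance of 175.5 bp and a width difference of 262 bp.

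Leaving out 1 list or library at a time gave 14.9% to 18.2% for the share of H3R2me2a on H3K4me3 and 7.23% to 18.6% for the reverse, where a single remaining H3R2me2a list makes up the regions (17.5% without replicate 1, 18.6% without replicate 2, the latter above H3R8me2a at 17.6%). The distance was 144 to 155.5 bp, the width difference 214.5 to 274 bp, the fold difference 0.65 to 0.71, and the TPM difference in whole testis -0.0090 to 0.016, above 0 without replicate 3. With the replicate number as a block, the differences from H3R8me2a were -4.37 and -0.67 percentage points (exact sign-flip p = 0.5, the smallest possible). For -4.37 the pairing is one of numbers only, and for -0.67 the pair is the same H3K4me3 list. Without a block the exact p was 0.333, also the smallest possible, so neither speaks of stability. A pseudocount of 0.1 in place of 1 raised the whole testis difference of H3R2me2a alone to 2.40. Depth is unknown for the lists, so a missing peak is a place not called.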
